A study of Mus musculus with 9 samples.

Results

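The genes described here are Trp53, which encodes the transcription factor p53, and 9 genes known as its direct targets: Mdm2, Ccng1, Zmat3, Gadd45a, Phlda3, Bax, Bbc3, Trp53inp1 and Sesn1. They were taken by symbol from the 47728 gene rows of the count files, and all 10 had enough counts to be tested. Levels are CPM, the counts of a gene as a share of all counts of its library, scaled up and corrected by a normalisation factor per library. Cdkn1a, the p53 target that encodes the cell cycle inhibitor p21, is set beside them in levels, in day comparisons and in each knockdown against the control.

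The cells were C2C12, a mouse myoblast line whose cells leave the cell cycle and fuse into myotubes. PolyA RNA was sequenced from cells with Cry2 knocked down, cells with Cry1 knocked down and control cells that the titles call Neg. Day 0, day 3 and day 5 of differentiation were sampled from each, which makes 9 libraries and none repeated. The products of Cry1 and Cry2, the cryptochromes, repress the activators of the circadian clock. How the knockdowns were made, and whether a culture was 1 clone or a pool, is not given in the sources used here. Day 0 was the day on which growth medium with fetal bovine serum was changed for horse serum with insulin, transferrin and selenium.

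p53 is held at a low level by Mdm2, a ubiquitin ligase that marks it for breakdown and that p53 itself switches on, so the pair forms a feedback loop. After DNA damage or other stress p53 escapes this control, mostly through protein modification and not through more of its mRNA, and switches on genes that stop the cycle, repair DNA, limit growth signalling or start cell death. Many targets also answer to other factors. In myoblasts, for instance, Cdkn1a is switched on during differentiation without p53, and in wasting muscle Gadd45a is a target of the amino acid stress factor ATF4. Counts of mRNA measure neither the p53 protein nor its activity.

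Total counts ran from 4731020 to 6412279 per library, so 3 counts, the most that a count of 0 allows, were worth 0.468 to 0.634 CPM. That range is taken before the normalisation factor and covers counting error only. Cry2 differed in the Cry2 knockdown against the control by a log2 fold change of -1.74 ± 0.17 (SE, adjusted p = 0.0138), and Cry1 in the Cry1 knockdown by -1.22 ± 0.22 (SE, adjusted p = 0.0265), both lower. All 9 myoblast and myotube markers reached at least 1 CPM in some library, and their summed level was 2085 to 21952 CPM. Summed markers of adipocytes, endothelial cells, blood and epithelium stayed at or below 9.61 CPM. Of 4 fibroblast markers Thy1 was at 0 in every library and the other 3 summed to 2443 to 12217 CPM, highest at day 5 in each genotype. Their part in the differences between days was not tested. With no replicate of a genotype and day, p-values come from the additive edgeR fit over 13094 genes. They weigh a difference against the spread that the genotype and day terms leave over all 9 libraries. That spread is the disagreement of days on genotypes and of genotypes on days, groups not compared included. It is also drawn toward the spread of other genes. A difference of culture shared by the 3 days of a genotype cannot be told apart from the knockdown.

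Set per kilobase of exon, the genes fell into an order of level that held in part. Exon length counted all annotated exon bases of a gene, and the longest transcript of some is shorter. For Bax it has 1100 bases against 1576 and for Zmat3 7797 against 11435, so the order depends on that choice. The median level over 9 libraries was 431 for Cdkn1a, 125 for Phlda3, 63.2 for Gadd45a, 58.9 for Ccng1 and 49.8 CPM per kilobase for Bax. It was 23.7 for Mdm2, 22.3 for Trp53, 10.3 for Sesn1, 7.03 for Bbc3, 5.62 for Trp53inp1 and 5.02 for Zmat3. In 2 places every library kept the order: Mdm2 was below Bax in 9 of 9 libraries, and Sesn1 was below Trp53 in 9 of 9. Other neighbours changed places between libraries. Trp53 was below Mdm2 in 4 of 9 libraries, Bax below Ccng1 in 4, and Ccng1 below Gadd45a in 5. The remaining neighbours kept their order in 6 or 7 of 9 libraries. The spread over libraries also ran widely. The highest library held 12.8 times the level of the lowest for Gadd45a, 6.18 times for Cdkn1a, 3.06 times for Trp53, 2.96 times for Ccng1 and 2.61 times for Bbc3, but 1.34 times for Mdm2. Bax, Zmat3, Sesn1, Trp53inp1 and Phlda3 lay between 1.53 and 2.05 times.

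**Figure D1:**
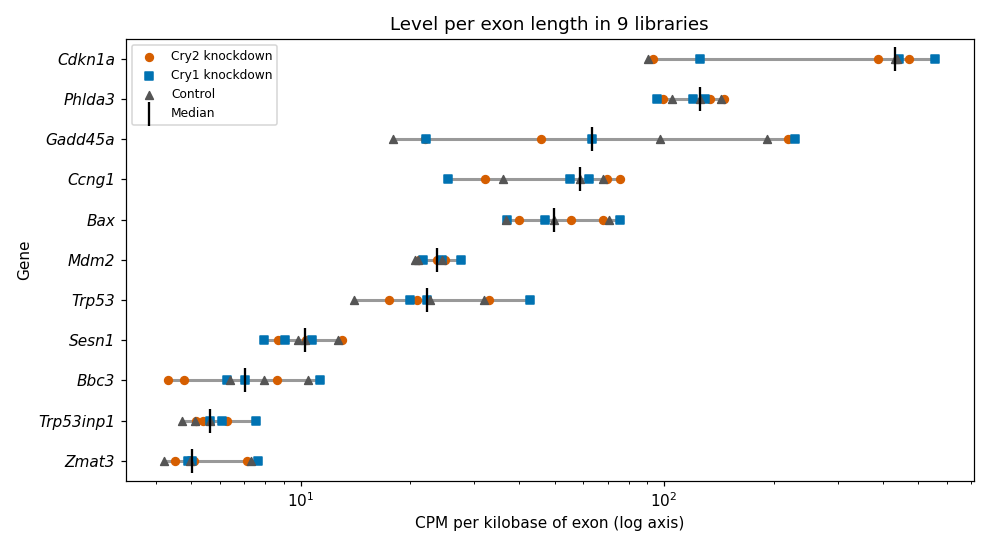
Level of Cdkn1a and the 10 genes in CPM per kilobase of exon on a log axis, with 1 point per library, coloured by genotype, a grey line from the lowest to the highest library and a black tick at the median. Gadd45a and Cdkn1a spread over the widest range and Mdm2 over the narrowest, 1.34 times.

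The reference annotation places Trp53 (ENSMUSG00000059552, chr11:69580359-69591873, plus strand), Mdm2 (ENSMUSG00000020184, chr10:117688875-117710758, minus strand) and Ccng1 (ENSMUSG00000020326, chr11:40748552-40755311, minus strand) on mm10. Zmat3 (ENSMUSG00000027663, chr3:32334792-32366014, minus strand), Gadd45a (ENSMUSG00000036390, chr6:67035096-67037457, minus strand) and Phlda3 (ENSMUSG00000041801, chr1:135766119-135769136, plus strand) follow. Bax (ENSMUSG00000003873, chr7:45461697-45466898, minus strand) and Bbc3 (ENSMUSG00000002083, chr7:16308393-16318205, plus strand) share a chromosome, and Trp53inp1 (ENSMUSG00000028211, chr4:11156431-11174379, plus strand) and Sesn1 (ENSMUSG00000038332, chr10:41809935-41908424, plus strand) complete the set. Reads of 2 genes are partly uncertain. In Bax 12.2% of exon bases are shared with Gm45808 on the same strand, and in Gadd45a 19.1% are shared with E230016M11Rik on the opposite strand, which a kit without strand marking cannot separate. Of the 50-base words of the longest Trp53 transcript, 3.04% occur in transcripts of other genes, and of the Mdm2 and Zmat3 words 0.452% and 1.30% do.

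A p53 element is a pair of 10-base half-sites in tandem. Pairs with bases between the half-sites were not searched, nor was sequence outside promoter windows, such as introns. In RefSeq promoter windows of GRCm38.p6, 300 bases long from 250 before to 50 after a start, the full 20-base element with at most 1 mismatch was rare. It occurred in 29 of 32851 windows, or 0.0883%. Of the 8 genes of the set with a window, all but Trp53inp1 and Zmat3, Ccng1 alone had one, and the more upstream of the annotated Cdkn1a starts had one too. Both are shown because these targets then went opposite ways over differentiation. The capitals mark the element in the 250 bases before each start, at chr11:40755287-40755536, minus strand for Ccng1 and chr17:29090729-29090978, plus strand for Cdkn1a.
Ccng1: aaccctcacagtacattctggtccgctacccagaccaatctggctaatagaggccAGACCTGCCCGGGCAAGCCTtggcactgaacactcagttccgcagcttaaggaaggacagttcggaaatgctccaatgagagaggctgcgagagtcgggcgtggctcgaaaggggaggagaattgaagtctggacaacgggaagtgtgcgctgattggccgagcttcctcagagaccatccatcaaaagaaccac
Cdkn1a: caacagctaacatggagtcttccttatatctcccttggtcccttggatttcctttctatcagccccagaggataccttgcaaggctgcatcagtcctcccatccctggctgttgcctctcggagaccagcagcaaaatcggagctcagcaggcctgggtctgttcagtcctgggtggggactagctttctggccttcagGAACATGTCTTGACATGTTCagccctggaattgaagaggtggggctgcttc

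With 0 mismatches the element was in 3 windows and in none of the set. A single p53 half-site with 0 mismatches was common, in 8.36% of windows, and was present in those of Trp53, Mdm2, Ccng1, Gadd45a, Bax and Sesn1. The window of Gadd45a, the gene with the widest range, held the octamer ATGCAAAT or its reverse complement ATTTGCAT at 2 positions, 97 and 70 bases before the start. The octamer on either strand was in 1.74% of windows, and 2 or more copies were in 0.107%. In the human GADD45A promoter such octamers are known sites of the factor Oct-1. The 250 bases before the Gadd45a start (chr6:67037408-67037657, minus strand) carry them in capitals.
Gadd45a: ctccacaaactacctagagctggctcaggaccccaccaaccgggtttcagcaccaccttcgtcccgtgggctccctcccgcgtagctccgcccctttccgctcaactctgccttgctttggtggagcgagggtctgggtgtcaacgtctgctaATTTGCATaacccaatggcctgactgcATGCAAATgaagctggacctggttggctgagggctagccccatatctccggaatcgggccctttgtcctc

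The palindrome CACGTG, the E-box that the clock activators bind and at which cryptochromes repress them, was in 7.15% of windows. It was in those of Trp53, 11 bases past the start, of Bax, 9 bases before and 36 bases past the start, and of Bbc3, 64 bases before 1 of its 3 annotated starts. Windows with 2 or more copies, as for Bax, were 0.594% of all. These 30-base stretches show each E-box in capitals, at chr11:69580357-69580386, plus strand for Trp53, chr7:45466890-45466919, minus strand and chr7:45466849-45466878, minus strand for Bax, and chr7:16310355-16310384, plus strand for Bbc3.
Trp53: actttcccctccCACGTGctcaccctggct
Bax upstream: agcgatgatgatCACGTGactagtcctgcg
Bax downstream: atgttgcggggcaccCACGTGagggccgca
Bbc3: gcggggcgggcgCACGTGgcggcgtcgagg
A match is a run of letters in the genome and says nothing about binding in these cells. No match says only that these letters are not in the window.

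Trp53 mRNA fell through differentiation while Mdm2, its main negative regulator, varied least of the 10 genes. Trp53 at days 0, 3 and 5 stood at 133, 84.5 and 70.7 CPM under Cry2 knockdown, 173, 90.3 and 81.0 CPM under Cry1 knockdown, and 129, 91.7 and 56.7 CPM in control cells. All 3 libraries of day 5 lay below all 3 of day 3, and these below all 3 of day 0, so the days did not overlap. The log2 fold change of Trp53 was -0.69 ± 0.11 (SE, adjusted p = 7.47e-04) at day 3 against day 0 and -1.06 ± 0.11 (SE, adjusted p = 4.31e-05) at day 5 against day 0. The later step, day 5 against day 3, was smaller at -0.37 ± 0.11 (SE, adjusted p = 0.0385). This step lost its call under DESeq2, without the genotype term, and without any 1 of 6 libraries: day 5 of the Cry1 knockdown, day 3 or 5 of the Cry2 knockdown, or any of the 3 control days, with adjusted p up to 0.163, and it was -0.24 without day 3 of the control. In RNA of whole cultures, fewer cells of a type and less RNA per cell cannot be told apart.

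Mdm2 stood at 120.4, 107 and 127 CPM under Cry2 knockdown, 125, 111 and 141 CPM under Cry1 knockdown, and 107, 105 and 124 CPM in control cells. Day 5 lay above day 3 in all 3 genotypes with no overlap, and day 0 overlapped both. Mdm2 rose at day 5 against day 3, with a log2 fold change of 0.27 ± 0.073 (SE, adjusted p = 0.0225). At day 5 against day 0 the value was 0.15 ± 0.072 (SE, adjusted p = 0.0972) and at day 3 against day 0 -0.12 ± 0.072 (SE, adjusted p = 0.195), neither past the threshold. The call at day 5 against day 3 was lost under DESeq2, without the filter, without the genotype term, and without any 1 of 5 libraries: day 3 or 5 of either knockdown, or day 5 of the control, with adjusted p up to 0.115. Mdm4, a relative of Mdm2 that also binds p53, gave -0.090 ± 0.11 (SE, adjusted p = 0.497) at day 5 against day 0.

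Among targets tied to the cell cycle, DNA and RNA, 2 fell and 1 rose steeply. Ccng1, which encodes cyclin G1, a partner of a phosphatase that acts on Mdm2, stood at 265, 245 and 113 CPM under Cry2 knockdown, 218, 193 and 89.3 CPM under Cry1 knockdown, and 239, 207 and 126 CPM in control cells. The fall came late. Day 3 overlapped day 0, and every day 5 library lay far below every earlier one. Its log2 fold change was -0.98 ± 0.097 (SE, adjusted p = 6.04e-04) at day 5 against day 3 and -1.14 ± 0.097 (SE, adjusted p = 1.15e-05) at day 5 against day 0, against -0.16 ± 0.094 (SE, adjusted p = 0.175) at day 3 against day 0.

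Zmat3, a zinc finger protein that binds RNA and acts on splicing, had an early fall. It stood at 81.6, 58.3 and 51.5 CPM under Cry2 knockdown, 87.1, 57.4 and 55.9 CPM under Cry1 knockdown, and 83.3, 56.9 and 48.2 CPM in control cells. The 3 genotypes at day 3 were within 1.03 times of each other. The 3 days did not overlap, and the log2 fold change was -0.55 ± 0.079 (SE, adjusted p = 4.76e-04) at day 3 against day 0 and -0.70 ± 0.080 (SE, adjusted p = 7.89e-05) at day 5 against day 0. Between days 5 and 3 it was -0.15 ± 0.082 (SE, adjusted p = 0.200), not past the threshold.

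Gadd45a, a growth arrest and DNA repair protein, moved most of the 10 genes between days 0 and 5. It stood at 38.8, 80.9 and 386 CPM under Cry2 knockdown, 39.0, 112 and 404 CPM under Cry1 knockdown, and 31.6, 172 and 338 CPM in control cells. Every later day lay above every earlier day, but at day 3 the genotypes differed 2.13 times between the highest, the control, and the lowest, the Cry2 knockdown. The log2 fold change was 1.71 ± 0.24 (SE, adjusted p = 3.74e-04) at day 3 against day 0, 1.65 ± 0.22 (SE, adjusted p = 0.00148) at day 5 against day 3 and 3.37 ± 0.24 (SE, adjusted p = 4.17e-06) at day 5 against day 0, the last a 10.3-fold rise. Cdkn1a stood at 332, 1378 and 1681 CPM under Cry2 knockdown, 445, 1569 and 1976 CPM under Cry1 knockdown, and 320.0, 1532 and 1555 CPM in control cells. Its rise was early: 2.04 ± 0.11 (SE, adjusted p = 1.49e-06) at day 3 against day 0, against 0.21 ± 0.10 (SE, adjusted p = 0.152) at day 5 against day 3, with days 3 and 5 overlapping.

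The 2 pore and BH3 genes of cell death went opposite ways. Bax, which opens the outer membrane of mitochondria, stood at 107, 87.3 and 62.8 CPM under Cry2 knockdown, 119, 74.2 and 58.1 CPM under Cry1 knockdown, and 111, 78.5 and 58.0 CPM in control cells. The days did not overlap. On the log2 scale Bax fell by 0.49 ± 0.089 (SE, adjusted p = 0.00158) at day 3 against day 0, by 0.42 ± 0.091 (SE, adjusted p = 0.0103) at day 5 against day 3, and by 0.91 ± 0.090 (SE, adjusted p = 3.03e-05) at day 5 against day 0. Without day 5 of the Cry1 knockdown, its value at day 5 against day 3 had an adjusted p of 0.0526.

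Bbc3 encodes PUMA, a BH3-only protein that sets off Bax. It was a low gene here, with 48 to 136 counts per library. It stood at 9.19, 10.1 and 18.3 CPM under Cry2 knockdown, 13.3, 14.9 and 23.96 CPM under Cry1 knockdown, and 13.6, 22.3 and 16.8 CPM in control cells. All 3 libraries of day 5 lay above all 3 of day 0, while day 3 overlapped both. The log2 fold change at day 5 against day 0 was 0.73 ± 0.22 (SE, adjusted p = 0.0186). This call rested on single libraries: it was lost without the genotype term and without day 0 or 5 of either knockdown or day 0 of the control, with adjusted p up to 0.099. Without day 3 of the control, Bbc3 also passed at day 5 against day 3, with an adjusted p of 0.0392, and without day 5 of the control with 0.0396.

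The 3 remaining targets act on growth signalling and autophagy. At day 3 against day 0 Phlda3 rose, and Trp53inp1 and Sesn1 moved less. Phlda3, which keeps the kinase Akt from the membrane, stood at 155, 228 and 209 CPM under Cry2 knockdown, 149, 202 and 187 CPM under Cry1 knockdown, and 164, 224 and 196 CPM in control cells. Days 3 and 5 both lay above day 0 and overlapped each other. Its log2 fold change was 0.48 ± 0.071 (SE, adjusted p = 5.06e-04) at day 3 against day 0, -0.14 ± 0.071 (SE, adjusted p = 0.163) at day 5 against day 3 and 0.34 ± 0.071 (SE, adjusted p = 0.00295) at day 5 against day 0.

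Trp53inp1, a nuclear and autophagy protein that promotes p53 phosphorylation, stood at 35.0, 40.6 and 33.4 CPM under Cry2 knockdown, 36.5, 48.8 and 39.3 CPM under Cry1 knockdown, and 30.6, 36.4 and 33.1 CPM in control cells. It was highest at day 3 within each genotype, yet the days overlapped over the 3 genotypes. The log2 fold change at day 3 against day 0 was 0.30 ± 0.090 (SE, adjusted p = 0.0221). The call was lost under DESeq2, without the filter, without the genotype term, and without day 0 or 3 of the Cry1 knockdown or day 0 of the control, with adjusted p up to 0.167. Sesn1, a sestrin that restrains the growth kinase complex mTORC1, stood at 51.7, 41.2 and 34.5 CPM under Cry2 knockdown, 31.7, 42.8 and 36.1 CPM under Cry1 knockdown, and 50.3, 39.1 and 41.0 CPM in control cells. The lowest library was day 0 of the Cry1 knockdown, and the days overlapped throughout. Sesn1 passed no day comparison over 9 libraries, with -0.24 ± 0.16 (SE, adjusted p = 0.2203) at day 5 against day 0, but without that 1 library this became -0.46 with an adjusted p of 0.0107.

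**Figure D2:**
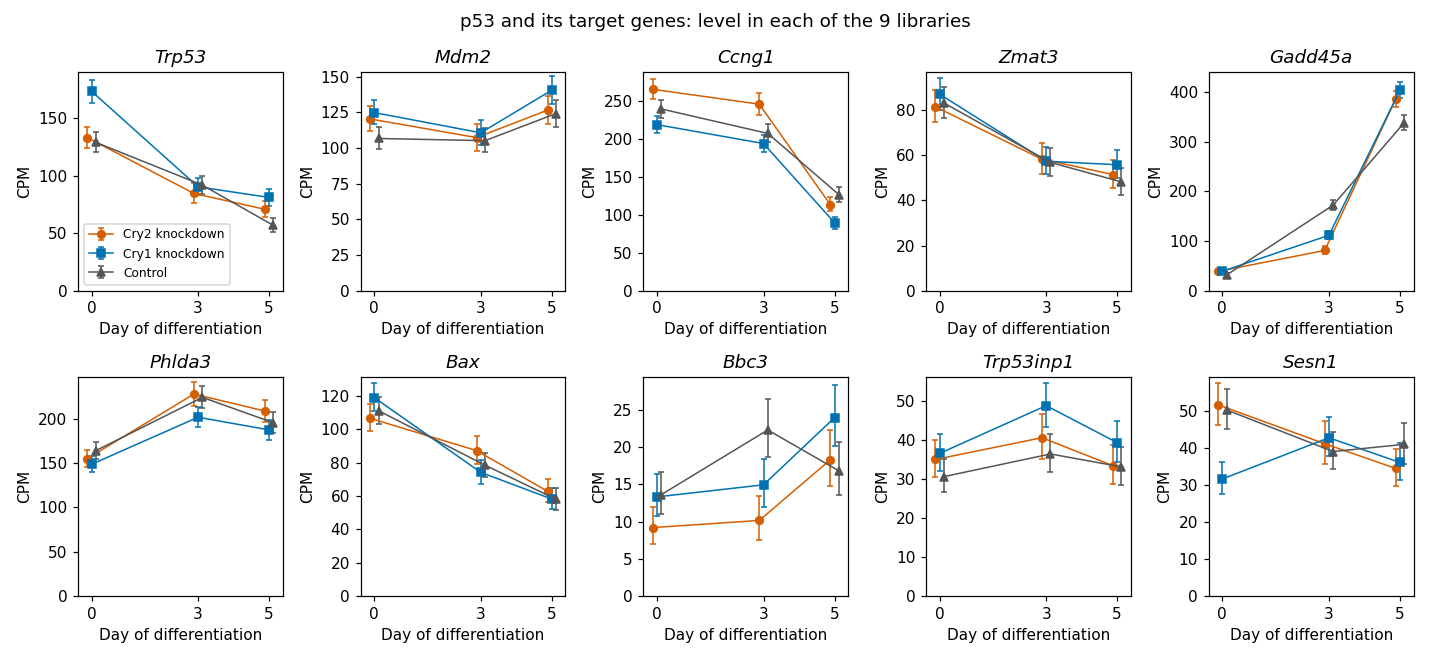
CPM of each of the 10 genes at days 0, 3 and 5, with 1 point per library, 1 line per genotype and bars for the 95% counting interval. Trp53, Ccng1, Zmat3 and Bax are lower at day 5 than at day 0 in all 3 genotypes, Gadd45a is higher, and the genotypes part most in Gadd45a and Bbc3 at day 3.

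Counted over the set, 3 genes rose and 3 fell at day 3 against day 0, where 25.4% of all genes tested rose and 25.7% fell. At day 5 against day 3, 2 rose and 3 fell, against 14.7% and 13.2% of all genes. At day 5 against day 0, 3 rose and 4 fell, against 28.3% and 27.9%. With so many genes called in the whole table, these counts say nothing particular of the set. The median log2 fold change over the set was -0.11, -0.15 and -0.10 in these comparisons, and over all genes 0.01 in each. The 9 targets did not follow Trp53 as a block. At day 5 against day 0, when Trp53 mRNA fell, 3 targets fell with it, 3 rose, and Mdm2, Trp53inp1 and Sesn1 did not pass.

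**Figure D3:**
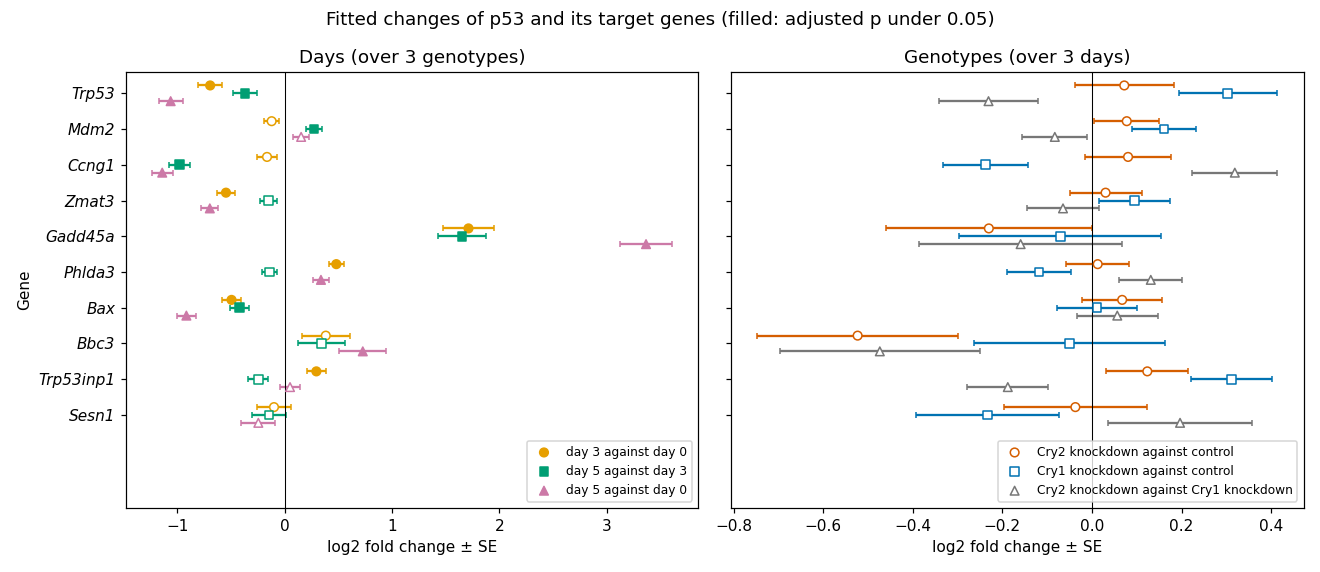
Fitted log2 fold change with its standard error for each gene in the 3 day comparisons (left) and the 3 genotype comparisons (right), with filled symbols for an adjusted p under 0.05 and open ones otherwise. The day panel has filled symbols on both sides of 0, and every symbol of the genotype panel is open.

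No gene of the set passed in a genotype comparison. For the Cry2 knockdown against the control, 0 of 10 were called by edgeR, where 0.084% of all genes were, and 1 of 10 had an unadjusted p under 0.05, as did 1604 of all 13094 genes. That gene was Bbc3, with -0.52 ± 0.22 (SE, adjusted p = 0.393), lower at days 0 and 3 and higher at day 5. For the Cry1 knockdown against the control 0 of 10 were called, where 2.67% of all genes were, and 3 had an unadjusted p under 0.05, as did 2492 of all 13094. For the Cry2 knockdown against the Cry1 knockdown 0 of 10 were called, where 7.93% of all genes were, and 1 had an unadjusted p under 0.05, as did 3375 of all 13094. DESeq2 called 0 in each of these comparisons. The standard errors of these 30 log2 fold changes were 0.071 to 0.23, and a missed threshold does not show equal levels.

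The lowest p-values of the Cry1 knockdown against the control were those of Trp53inp1 at 0.31 ± 0.090 (SE, adjusted p = 0.108), Trp53 at 0.30 ± 0.11 (SE, adjusted p = 0.181) and Ccng1 at -0.24 ± 0.095 (SE, adjusted p = 0.219). Trp53inp1 was higher and Ccng1 lower in the Cry1 knockdown at each of the 3 days. Trp53 was higher at days 0 and 5, by log2 ratios of 0.43 (95% interval 0.30 to 0.55) and 0.51 (95% interval 0.30 to 0.73), and level at day 3 with -0.023 (95% interval -0.20 to 0.15). Mdm2, at 0.16 ± 0.072 (SE, adjusted p = 0.269), was higher at each day. Between the knockdowns, Ccng1 was higher in the Cry2 knockdown at all 3 days, at 0.32 ± 0.095 (SE, adjusted p = 0.0748). It passed the threshold in the 6 knockdown libraries alone, with an adjusted p of 0.0436, and without day 5 of the control, with 0.0408. Cdkn1a gave 0.00095 ± 0.10 (SE, adjusted p = 0.999) in the Cry2 knockdown and 0.28 ± 0.10 (SE, adjusted p = 0.175) in the Cry1 knockdown, each against the control. It was higher in the Cry1 knockdown at each day, by log2 ratios of 0.48, 0.034 and 0.35 at days 0, 3 and 5.

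Within a single day, where 1 library stood against 1 with no test, the Cry2 knockdown at day 3 held the 2 ratios beyond 2-fold. There Gadd45a was at 80.9 CPM, against 172 CPM in control cells, a log2 ratio of -1.09 (95% interval -1.26 to -0.92). Bbc3 was at 10.1 CPM, against 22.3 CPM in control cells, a log2 ratio of -1.12 (95% interval -1.64 to -0.65). The Cry1 knockdown at day 3 lay on the same side with smaller ratios, -0.63 (95% interval -0.77 to -0.49) for Gadd45a and -0.57 (95% interval -0.98 to -0.18) for Bbc3. At days 0 and 5 both knockdowns had a little more Gadd45a than the control, with log2 ratios of 0.30 and 0.19 under Cry2 knockdown and of 0.30 and 0.26 under Cry1 knockdown. Intervals cover counting error only. The median log2 ratio over the 10 genes at days 0, 3 and 5 was 0.04, 0.03 and 0.09 under Cry2 knockdown and 0.08, -0.05 and 0.19 under Cry1 knockdown.

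The amino acid stress genes, 12 genes that include Ddit3, Trib3 and Atf4, had 0 calls in every genotype comparison and in both differentiation responses, but their summed level differed between the single libraries of day 3. Their summed level at days 0, 3 and 5 was 1174, 864 and 3152 CPM under Cry2 knockdown, 1274, 1816 and 3447 CPM under Cry1 knockdown, and 1377, 3019.5 and 2708 CPM in control cells. Day 3 is where the genotypes stood furthest apart. Trib3, a pseudokinase induced by ATF4, was at 12.5 CPM at day 3 under Cry2 knockdown, 64.4 CPM under Cry1 knockdown and 153 CPM in control cells. Sesn2 and Ddit4, on this list, are also p53 targets. The part of these genes in the Gadd45a and Bbc3 ratios was not tested.

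Of the 10 genes, 2 lay beyond 2-fold at day 3 in the Cry2 knockdown, where 5.92% of all genes did, and 0 at day 3 in the Cry1 knockdown, where 6.23% did. At day 0 none did in the Cry2 knockdown (4.24% of all genes) or the Cry1 knockdown (6.13%), and at day 5 none did in the Cry2 knockdown (5.56%) or the Cry1 knockdown (5.64%). The next largest ratio was that of Sesn1 at day 0, with 31.7 CPM under Cry1 knockdown and 50.3 CPM in control cells, a log2 ratio of -0.67 (95% interval -0.92 to -0.42). At day 5 Ccng1 stood at -0.50 (95% interval -0.67 to -0.33) and Bbc3 at 0.51 (95% interval 0.12 to 0.91) in the Cry1 knockdown.

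**Figure D4:**
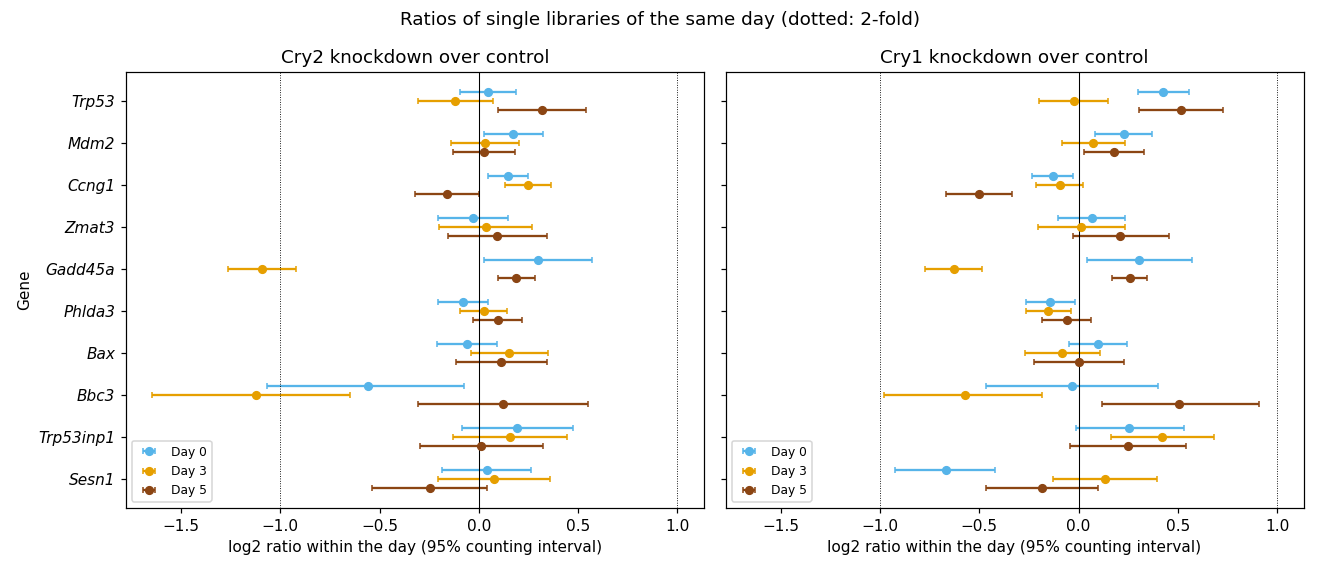
Log2 ratio of each knockdown library to the control library of the same day, with the 95% counting interval and dotted lines at 2-fold, for the Cry2 knockdown (left) and the Cry1 knockdown (right). Only Gadd45a and Bbc3 at day 3 in the Cry2 knockdown lie beyond a dotted line, and Sesn1 stands apart at day 0 in the Cry1 knockdown.

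Whether differentiation itself moved these genes differently in a knockdown was asked by comparing days 3 and 5 with day 0 in the knockdown and in the control, in a fit of 13608 genes with 2 residual degrees of freedom. None of the 10 genes passed in the Cry2 knockdown, where 0.0367% of all genes did, or in the Cry1 knockdown, where 0.0% did. By unadjusted p under 0.05 the counts were 0 and 1 of 10, beside 818 and 670 of all 13608 genes, and DESeq2 called none of the 10. In the Cry2 knockdown the lowest p was that of Gadd45a, -0.73 ± 0.49 (SE, adjusted p = 0.841). Without day 5 of the control this difference became -1.26 with an adjusted p of 0.0225, since day 3 then stood alone for the later stage of the control. In the Cry1 knockdown the lowest p was that of Sesn1, 0.65 ± 0.22 (SE, adjusted p = 0.946).

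Other p53 targets also moved both ways over differentiation. Over all genes, 28.3% rose and 27.9% fell at day 5 against day 0, 14.7% and 13.2% at day 5 against day 3, and 25.4% and 25.7% at day 3 against day 0, and the counts of each list stand beside these shares. Of 40 listed, 38 were tested, and at day 5 against day 0 14 rose and 11 fell, with a median of 0.02 beside 0.01 over all genes. Eda2r, a receptor of the tumour necrosis factor family, stood at 46.7, 212 and 443 CPM under Cry2 knockdown, 52.8, 211 and 492 CPM under Cry1 knockdown, and 37.8, 298 and 384 CPM in control cells, and rose by 3.26 ± 0.18 (SE, adjusted p = 1.01e-06). All 3 day 5 libraries were the highest. Pmaip1, which encodes the BH3-only protein NOXA, rose by 1.52 ± 0.095 (SE, adjusted p = 1.84e-06). Cdkn1a rose by 2.26 ± 0.11 (SE, adjusted p = 3.85e-07), and Ckap2, a spindle protein that dividing cells use, fell by 3.02 ± 0.15 (SE, adjusted p = 4.99e-07). At day 5 against day 3, 4 rose and 7 fell, among them Plk2 at 0.46 ± 0.092 (SE, adjusted p = 0.00703) and Btg2 at -0.58 ± 0.12 (SE, adjusted p = 0.00712). At day 3 against day 0, 12 rose and 9 fell.

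The p53 regulators and kinases had 19 of 21 genes tested, of which 3 rose and 9 fell at day 5 against day 0, with a median of -0.09, where 28.3% of all genes rose and 27.9% fell. At day 3 against day 0, 3 rose and 11 fell, with a median of -0.58, and at day 5 against day 3, 5 rose and 3 fell. The checkpoint kinases Chek1 and Chek2 had log2 fold changes of -2.87 ± 0.22 (SE, adjusted p = 6.57e-06) and -2.63 ± 0.23 (SE, adjusted p = 1.43e-05) at day 5 against day 0, both lower. The proliferation genes, Cdk1 among them, fell with them. Of 8, all 8 fell in every day comparison, and their summed level was 175 to 213 CPM at day 5 and 1577 to 1949 CPM at day 0. Their part in the other changes was not tested. Ppp1r13l, which encodes the p53 inhibitor iASPP, rose by 1.34 ± 0.15 (SE, adjusted p = 7.87e-05). The coactivator gene Crebbp and the deacetylase gene Sirt1 had -0.90 ± 0.096 (SE, adjusted p = 7.68e-05) and -0.88 ± 0.10 (SE, adjusted p = 1.32e-04) at day 3 against day 0, both lower. At day 5 against day 3 Crebbp rose again, by 0.56 ± 0.097 (SE, adjusted p = 0.00399). Hipk2, a kinase that acts on p53, rose in the same step by 1.13 ± 0.13 (SE, adjusted p = 8.70e-04).

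Trp63, which encodes the p53 relative p63, came on in differentiation. Under Cry2 knockdown it had 0, 53 and 163 counts at days 0, 3 and 5, under Cry1 knockdown 4, 157 and 271, and in control cells 6, 92 and 290. The level of day 5 was 30.7 CPM under Cry2 knockdown, 47.7 CPM under Cry1 knockdown and 53.6 CPM in control cells. It rose at day 5 against day 3 by 1.35 ± 0.21 (SE, adjusted p = 0.00266) and at day 5 against day 0 with an adjusted p of 9.06e-07, where the counts of day 0 are too low for a size. The other relative, Trp73, had 0 counts in all 9 libraries. So had Cdkn2a, whose product ARF blocks Mdm2: 0 of 52778710 counts, which allows up to 0.0568 CPM before the normalisation factor. Its neighbour Cdkn2b was also at 0 in every library, and was looked up after the values of Cdkn2a were seen.

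In the BCL2 family and apoptosome list 17 of 19 genes were tested, and 6 rose and 6 fell at day 5 against day 0, where 28.3% of all genes rose and 27.9% fell. At day 3 against day 0, 7 rose and 4 fell, and at day 5 against day 3, 4 rose and 5 fell. Apaf1, the core of the apoptosome, fell by 1.58 ± 0.16 (SE, adjusted p = 3.34e-05) at day 5 against day 0, while the survival gene Bcl2l2 rose by 0.92 ± 0.081 (SE, adjusted p = 1.37e-05) and the BH3-only gene Bmf by 1.31 ± 0.21 (SE, adjusted p = 6.78e-04). Bcl2l1, which encodes the survival protein BCL-XL, rose at day 5 against day 3 by 0.70 ± 0.096 (SE, adjusted p = 0.00149).

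Relatives of the set did not always move as their partner did. Of 13, 11 were tested, and at day 5 against day 0 7 rose and 3 fell, with a median of 0.66, where 28.3% of all genes rose and 27.9% fell. Trp53inp2 rose by 1.15 ± 0.081 (SE, adjusted p = 3.54e-06), where Trp53inp1 gave 0.051 ± 0.091. Sesn3 rose by 0.66 ± 0.11 (SE, adjusted p = 7.62e-04), where Sesn1 gave -0.24 ± 0.16, and Phlda1 fell by 1.22 ± 0.11 (SE, adjusted p = 1.31e-05), where Phlda3 rose. Gadd45b and Gadd45g rose at day 3 against day 0 by 1.35 ± 0.18 (SE, adjusted p = 2.73e-04) and 1.19 ± 0.18 (SE, adjusted p = 5.88e-04), beside 1.71 ± 0.24 for Gadd45a. In the day 5 against day 3 step, Gadd45a alone of the 3 rose. There Gadd45b stood at -0.61 ± 0.17 (SE, adjusted p = 0.0281) and Gadd45g at -0.33 ± 0.18 (SE, adjusted p = 0.191). At day 3 against day 0, 6 relatives rose and 1 fell, and at day 5 against day 3, 1 rose and 5 fell. The amino acid stress list had 10 of 12 rises and 0 falls at day 5 against day 0, with a median of 1.75, beside the same shares over all genes.

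**Figure D5:**
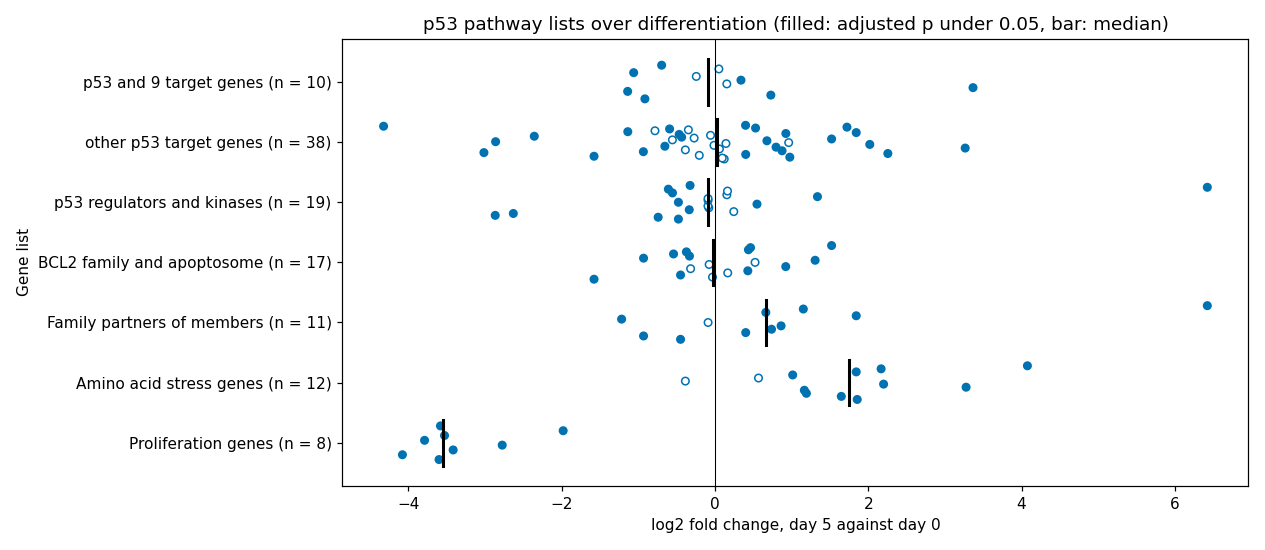
Log2 fold change at day 5 against day 0 of each tested gene in 7 lists, with filled points for an adjusted p under 0.05 and a black bar at the median. The p53 lists spread to both sides of 0, while the 8 proliferation genes all lie below it, and the rightmost point of 2 lists is Trp63, whose fitted value rests on 0 to 6 counts per library at day 0 and is not a size.

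Between genotypes, calls among the other p53 targets were near the share over all genes: 1 of 38 beside 2.67% in the Cry1 knockdown against the control, and 3 of 38 beside 7.93% in the Cry2 knockdown against the Cry1 knockdown. Aen, a nuclease gene, was the 1 that passed in the Cry1 knockdown against the control, at 0.47 ± 0.088 (SE, adjusted p = 0.0331). It stood at 60.8, 68.2 and 67.5 CPM under Cry2 knockdown, 77.5, 82.6 and 74.9 CPM under Cry1 knockdown, and 54.1, 54.5 and 61.5 CPM in control cells, higher in the Cry1 knockdown at each day. Between the Cry2 knockdown and the Cry1 knockdown 3 passed, all higher in the Cry2 knockdown: Abhd4 at 0.61 ± 0.11 (SE, adjusted p = 0.0153), Ephx1 at 0.45 ± 0.088 (SE, adjusted p = 0.0192) and Fdxr at 0.62 ± 0.15 (SE, adjusted p = 0.0387). The median log2 fold change over the 38 lay on the other side in that comparison, at -0.12 beside -0.015 over all genes. In the Cry2 knockdown against the control 0 of the 38 passed. Regulators, the BCL2 family, relatives, amino acid stress and proliferation genes had 0 calls in every genotype comparison.

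Across the 9 libraries, the genes of at least 10 CPM on average whose log2(CPM + 1) most resembled that of Trp53 were Anp32e (Pearson r = 0.98), Cnot6, Txnrd1, Nasp and Ncbp1. For Mdm2 they were Psme4 (r = 0.98), Usp40, Zfp91, Ubn2 and Ranbp2, and for Cdkn1a Gprc5c (r = 0.997), Igf2, AI464131, Pgam2 and Hfe2. They were the closest of 9502 genes over 9 libraries that share 3 days, so the values describe likeness over differentiation and carry no p-value.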

How the data were processed

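The deposited values are raw counts of reads per gene, made by the authors with CASAVA 1.8, HISAT2 2.0.2, Subread and featureCounts 1.4.6 on mm10, per the submitters' processing notes. The strand setting of the counting is not given in the sources used here, and per the labels the kit was TruSeq RNA v2, which does not mark strand. Of 47728 gene IDs, 47223 matched a symbol and 47309 the GENCODE annotation of mm10 from which coordinates and exon lengths came.

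Under R 4.3.3, with limma 3.58.1 loaded, edgeR 4.0.16 scaled the counts by TMM, dropped low genes by filterByExpr and ran its quasi-likelihood test, with Benjamini-Hochberg adjusted p under 0.05 over all genes tested. A model with 1 term for genotype and 1 for day, without interaction, on all 9 libraries gave the genotype and day comparisons (13094 genes, 4 residual degrees of freedom). A second fit, of genotype by stage with a shared day 5 term, gave the differentiation responses (13608 genes, 2 residual degrees of freedom). The biological coefficient of variation was 11.8%. Standard errors are the absolute log2 fold change over the square root of F. Ratios within a day had 1 prior count added, and have exact conditional binomial 95% intervals, for counting error only. Where nothing says that cultures were separate, p-values measure only the spread between these samples.

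The 10 genes and the lists were chosen with earlier results of these data known. Named genes were the 10, Cdkn1a, Cry1 and Cry2 as a check of the knockdowns, and from each list up to 4 called genes of lowest p per comparison. The 5 genes closest to Trp53, Mdm2 and Cdkn1a by Pearson r were also named. Mdm4, Trp73, Cdkn2a and Cdkn2b, and some values of Gadd45b, Gadd45g and Trib3, were added after their values were seen. A gene that this rule selects is withheld for evaluation and is not reported here. Of the fits, only the additive edgeR fit was run on simulated data, for the Cry2 knockdown against the control. Alternatives were RLE factors, no filter, 1 CPM in 3 libraries, DESeq2 1.42.0, fits without a term or with 6 libraries, each library left out, and a prior count of 5. Tables and figures used Python 3.11.15, numpy 2.4.6, pandas 2.3.3, scipy 1.17.1 and matplotlib 3.10.9. No column of counts was left unused.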

Additional observations from a re-analysis of the deposited data

Results flagged for a closer look

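In 5 cases a gene moved in opposite directions in groups under the same contrast, by single libraries against single libraries, and none of these differences was tested as such. The test of days 3 and 5 against day 0 between genotypes called none of the 10 genes. It pools days 3 and 5 and gives all genotypes a shared step between them. It therefore cannot decide the Gadd45a and Bbc3 cases, where day 3 differed from day 5, and covers the Sesn1 case only in part.

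Gadd45a was higher under Cry2 knockdown than in control cells at days 0 and 5 (log2 ratios 0.30 and 0.19) and lower at day 3 (-1.09). Under Cry1 knockdown the log2 ratios were 0.30 and 0.26 at days 0 and 5, and -0.63 at day 3. Both knockdowns share the control library of day 3, which also had the highest summed level of amino acid stress genes of that day.

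Bbc3 was higher at day 5 than at day 3 under Cry2 knockdown (log2 ratio 0.84) and Cry1 knockdown (0.68), and lower in control cells (-0.40). Against control cells, Bbc3 under Cry1 knockdown had a log2 ratio of 0.51 at day 5 and -0.57 at day 3. Sesn1 was higher at day 3 than at day 0 under Cry1 knockdown (0.43), and lower under Cry2 knockdown (-0.33) and in control cells (-0.36).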

How the results depend on the processing

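Of 1525 values recomputed under an alternative, 1390 were taken as unchanged. A fitted change had to keep its direction and side of the threshold, and a level or ratio had to move less than its spread. Counts of called genes had only to stay near the main count. At day 3 against day 0, 5128 genes under DESeq2 beside 6687 were taken as unchanged. No called value of the 10 genes changed sign. Each genotype and day is 1 library, so p-values rest on disagreement between days or genotypes, and a difference in culture cannot be told from a knockdown. Bbc3, at 48 to 136 counts, has the widest counting error of the 10 genes. Gadd45a has the largest standard error in every genotype and day comparison, 0.24 beside 0.22 for Bbc3 at day 5 against day 0. No paired analysis was possible because the labels give no replicate numbers to pair, and the day that genotypes share is already a term of the fit. The responses of a genotype could not be fitted without its own day 0 library, nor without that of the control.

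At day 5 against day 3, 5 of the 10 genes were called, against 3 under DESeq2, 3 without the genotype term, and 2 to 5 with 1 library left out. For the Cry2 knockdown against the Cry1 knockdown 0 were called, against 1 in the 6 libraries compared and 0 to 1 with 1 left out, and for the differentiation response of the Cry2 knockdown 0, against 0 to 1. With 0 mismatches allowed, 0 genes of the set held a p53 element in a promoter window, against 1. Within-day ratios with a prior count of 5 or RLE factors all stayed inside their counting intervals, and of 60 mean levels rescaled by RLE or by totals alone, 4 moved by more than the spread over genotypes. The causes were not tested.

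Counts over all genes moved more. The Cry2 knockdown against the control called 11 genes, against 316 without the filter, 85 under DESeq2, 6 at 1 CPM in 3 libraries, 5 in the 6 libraries compared, 0 without the day term and 0 to 17 with 1 library left out. The Cry1 knockdown against the control called 349, against 919, 319, 340, 203, 0 and 27 to 366 in the same order. The Cry2 against the Cry1 knockdown called 1038, against 660 under DESeq2, 0 without the day term and 258 to 1137. Day 5 against day 3 called 3653, against 2382 under DESeq2, 2190 without the genotype term and 2045 to 3739. The differentiation responses of the Cry2 and Cry1 knockdowns called 5 and 0, against 48 and 72 without the filter, 10 and 15 under DESeq2, and up to 160 and 126 with 1 library left out.

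Signs that changed belonged to log2 differences that passed no threshold. In the Cry2 knockdown against the control Phlda3 was -0.0058 without the filter, and in the Cry1 knockdown against the control Gadd45a was 0.034 without the day term. With 1 library left out, the Cry2 knockdown against the control ran from -0.029 to 0.21 for Trp53, -0.20 to 0.071 for Sesn1, -0.44 to 0.16 for Gadd45a, -0.022 to 0.053 for Phlda3 and -0.011 to 0.056 for Zmat3. The Cry1 knockdown against the control ran from -0.074 to 0.077 for Bax, -0.34 to 0.26 for Bbc3 and -0.28 to 0.35 for Gadd45a. The Cry2 against the Cry1 knockdown ran from -0.010 to 0.15 for Bax, -0.040 to 0.36 for Sesn1 and -0.32 to 0.11 for Gadd45a. Sesn1 ran from -0.32 to 0.047 at day 3 against day 0 and from -0.27 to 0.022 at day 5 against day 3. The response of the Cry2 knockdown ran from -0.18 to 0.29 for Trp53, -0.32 to 0.11 for Ccng1, -0.50 to 0.64 for Bbc3 and -0.29 to 0.046 for Sesn1. That of the Cry1 knockdown ran from -0.41 to 0.059 for Trp53, -0.37 to 0.049 for Ccng1, -0.0039 to 0.17 for Trp53inp1, -0.57 to 0.57 for Bbc3, -1.02 to 0.039 for Gadd45a and -0.023 to 0.13 for Zmat3.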
